A study of Mus musculus with 12 samples.

Results

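The genes described here are 36 digestive and absorptive genes of small-intestinal enterocytes, measured by RNA sequencing in crypts of the mouse colon. They were picked by symbol from the 55471 genes listed, and all 36 were found. The list was drawn up with earlier results of these libraries in view, so counts over it are descriptions. Enterocytes are the absorptive cells of the intestinal lining. Those of the small intestine carry a brush border of membrane-bound hydrolases that finish the digestion of starch, sugars and peptides, take up the products through transporters, and export dietary fat on apolipoproteins. The colon does little of this, and crypts of the small intestine, but as a rule not those of the colon, hold Paneth cells, which secrete α-defensins and lysozyme.

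Crypts were released from the colon with EDTA, and 12 libraries were made, 3 in each of 4 groups of C57BL/6J mice. All groups carried floxed p53 (Trp53) alleles. CBPWTp53-floxed and CBPAAp53-floxed mice kept p53, and in CBPWTp53ΔIEC and CBPAAp53ΔIEC mice it was deleted by Cre under the Villin promoter, which is active in the epithelium of both small intestine and colon. In CBPAA mice, alanines replace a pair of serines of CBP (Crebbp) in every cell of the body, a knock-in made in embryonic stem cells and backcrossed. According to the methods the mice were females aged 8 weeks unless stated otherwise, and the labels call the libraries of a group biological replicates, give the tissue as intestine and the cell type as colonic crypts. Reads counted on genes numbered 11177430 to 18029125 a library. Trp53 lay between 23.3 and 33.5 TPM (a level scaled to gene length and library size) in the 6 libraries with p53 and between 3.26 and 6.13 TPM in the 6 libraries labelled as deleted. Of the 36 genes, 31 passed the filter on low counts and were tested among 14610 genes. Fabp1, Apoc2, Lct, Slc2a2 and Reg1 did not pass.

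For 31 of the 36 genes RefSeq gives a start site on GRCm38.p6. The stretches before the starts of Apoa1, Fabp6, Sis and Otc are shown because the first 3 genes differed widely between libraries, whereas the levels of Otc did not overlap between p53 genotypes. Capitals mark matches, on either strand, to GTTAAT (part of a site of HNF1), CAAAGTC (core of an HNF4 site), AGATAA (read by factors of the GATA family) and TTTATG (CDX factors), which are sites of transcription factors of the gut.
Apoa1, plus strand, chr9:46228380-46228579: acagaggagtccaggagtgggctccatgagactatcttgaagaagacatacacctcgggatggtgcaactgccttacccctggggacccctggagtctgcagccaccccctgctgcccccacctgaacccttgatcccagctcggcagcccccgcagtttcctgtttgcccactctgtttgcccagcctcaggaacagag
Fabp6, minus strand, chr11:43601563-43601812: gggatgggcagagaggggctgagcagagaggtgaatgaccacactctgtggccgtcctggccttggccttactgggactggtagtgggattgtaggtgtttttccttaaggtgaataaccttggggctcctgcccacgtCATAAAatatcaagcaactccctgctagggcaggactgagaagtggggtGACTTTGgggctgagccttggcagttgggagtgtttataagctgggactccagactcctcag
Sis, minus strand, chr3:72967864-72968113: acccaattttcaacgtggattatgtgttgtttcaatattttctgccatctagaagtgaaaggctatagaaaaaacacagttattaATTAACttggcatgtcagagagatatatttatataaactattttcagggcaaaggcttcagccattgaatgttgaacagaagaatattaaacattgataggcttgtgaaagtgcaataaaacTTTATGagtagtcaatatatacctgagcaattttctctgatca
Otc, plus strand, chrX:10252055-10252304: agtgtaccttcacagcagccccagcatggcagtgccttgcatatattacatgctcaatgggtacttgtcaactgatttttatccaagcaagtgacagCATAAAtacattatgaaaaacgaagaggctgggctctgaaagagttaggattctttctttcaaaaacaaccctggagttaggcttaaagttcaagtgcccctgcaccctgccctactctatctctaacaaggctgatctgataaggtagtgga
Over the 250 bases before each start, GTTAAT stood in 4 of the 31 promoters and in 6.52% of all 27025, and CAAAGTC in 5 of 31 and in 3.80% of all. AGATAA stood in 5 of 31 and in 10.3% of all, and TTTATG in 6 of 31 and in 11.1% of all. Fabp6 held CAAAGTC and TTTATG, Sis held GTTAAT and TTTATG, Otc held TTTATG alone, and the printed Apoa1 stretch, which stops where the annotated gene begins, held none of these letters.

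The levels of the 36 genes spanned from genes listed at 0 in some libraries to 2531 TPM, as the heat map of the genes by library shows. The highest mean over the 12 libraries was that of Fabp2, a fatty acid binding protein of enterocytes, followed by Mep1a, Apoa1, Fabp6, Anpep, Slc5a1, Mep1b, Slc10a2, Mgam, Alpi, Apob and Enpep. Several of these were read at like levels in every mouse. Mep1a, a subunit of the brush border protease meprin, stayed between 237 and 447 TPM, and Slc5a1, the sodium-glucose cotransporter, between 82.6 and 161 TPM. At the other end, lactase (Lct) did not exceed 0.120 TPM, the glucose transporter Slc2a2 0.245 TPM, the transcription factor Gata4 0.986 TPM, and Apoc2 was listed above 0 in 1 library, by 1 read. Fabp1, the fatty acid binding protein of liver and proximal small intestine, lay between 0.906 and 3.61 TPM.

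**Figure D1:**
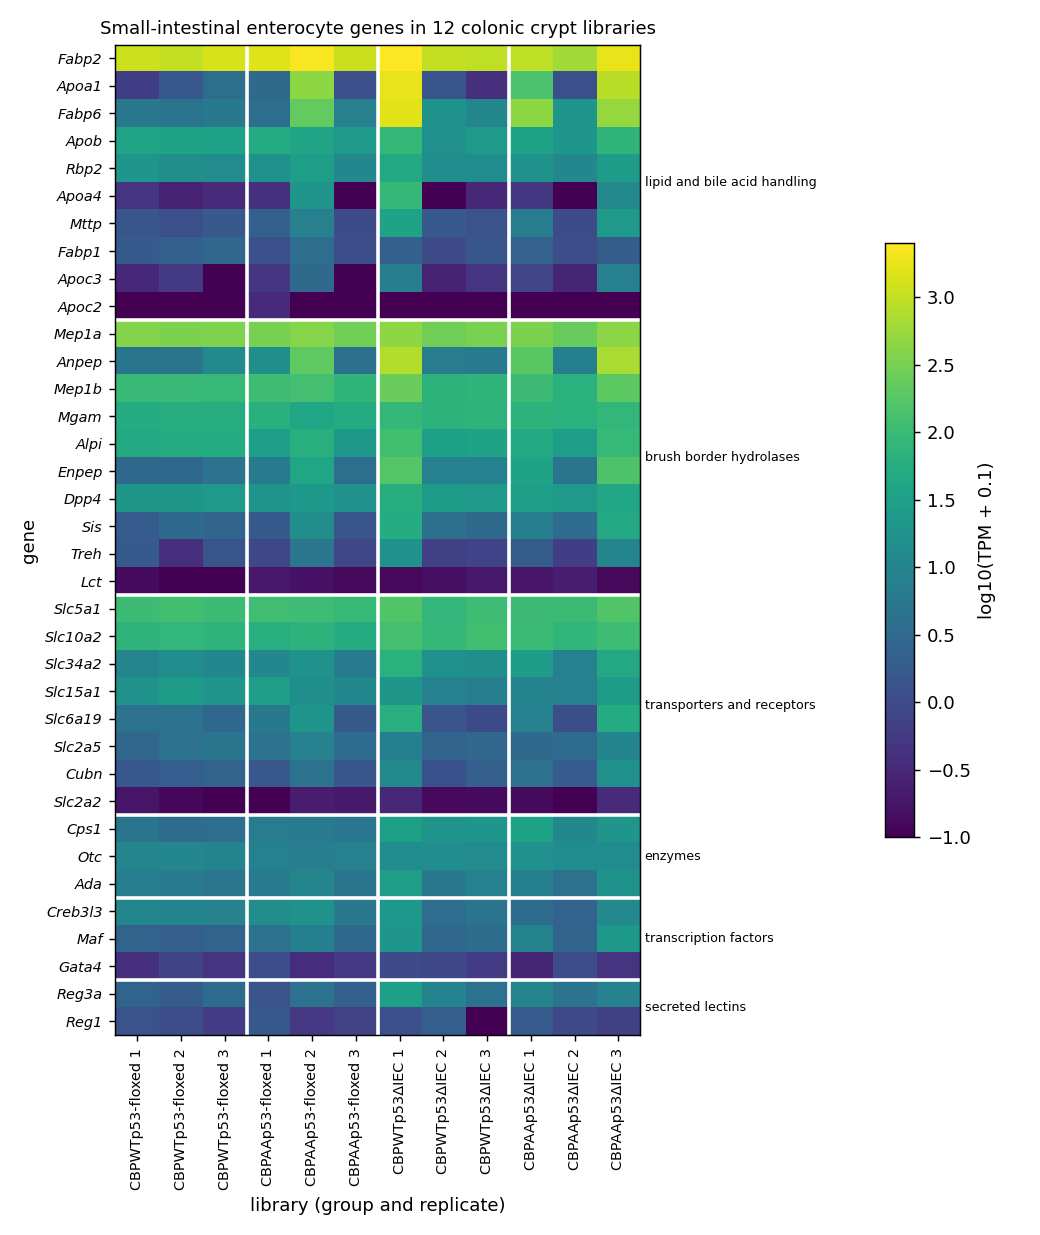
Level of each of the 36 genes (rows, grouped by role) in each of the 12 libraries (columns, 3 per group), as log10(TPM + 0.1). Columns of CBPAAp53-floxed replicate 2, CBPWTp53ΔIEC replicate 1 and CBPAAp53ΔIEC replicates 1 and 3 are brighter for genes such as Fabp6, Apoa1 and Anpep, whereas Mep1a and Slc5a1 are alike in all columns.

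The largest differences lay between mice of 1 group. Fabp6, the bile acid binding protein of the ileum, was read at 5.72, 4.78 and 5.94 TPM in CBPWTp53-floxed replicates 1 to 3 and at 3.78, 217 and 8.07 TPM in CBPAAp53-floxed replicates 1 to 3. In CBPWTp53ΔIEC replicates 1 to 3 it was read at 1629, 17.8 and 10.6 TPM, and in CBPAAp53ΔIEC replicates 1 to 3 at 453, 20.1 and 500 TPM. Thus 4 libraries, CBPAAp53-floxed replicate 2, CBPWTp53ΔIEC replicate 1 and CBPAAp53ΔIEC replicates 1 and 3, stood far above the rest. Apoa1, the main apolipoprotein of high-density lipoprotein, was read at 0.554, 1.48 and 3.88 TPM in CBPWTp53-floxed, 3.25, 451 and 1.10 TPM in CBPAAp53-floxed, 1704, 1.35 and 0.316 TPM in CBPWTp53ΔIEC and 143, 1.09 and 887 TPM in CBPAAp53ΔIEC replicates 1 to 3. Anpep, aminopeptidase N of the brush border, was read at 5.13, 4.80 and 12.2 TPM in CBPWTp53-floxed, 15.3, 201 and 4.16 TPM in CBPAAp53-floxed, 789, 6.95 and 6.37 TPM in CBPWTp53ΔIEC and 192, 7.91 and 704 TPM in CBPAAp53ΔIEC libraries. For both genes the lowest of the 4 lay far above the highest of the other 8.

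The same 4 libraries held high levels of α-defensin genes. The 12 listed Defa genes summed to 1115, 22020, 2486 and 5157 TPM in CBPAAp53-floxed replicate 2, CBPWTp53ΔIEC replicate 1 and CBPAAp53ΔIEC replicates 1 and 3. In the other 8 libraries they summed to between 0 and 36.4 TPM, and to 0 in all 3 CBPWTp53-floxed libraries. Lyz1, the lysozyme of Paneth cells, was read at 123, 2281, 410 and 789 TPM in the 4 and at no more than 13.7 TPM in the other 8. On counts scaled to library size (CPM, with TMM), 14 of the 16 tested Paneth cell genes were higher in each of the 4 than in any of the other 8, but 12 of the 14 are the Defa genes by which the 4 were told apart, and the other two are Lyz1 and Mmp7. The order of the 4 differed between genes, since Fabp6 was higher in CBPAAp53ΔIEC replicate 1 than in CBPAAp53-floxed replicate 2 and Apoa1 the other way round. The colonic epithelial genes Car1 and Lypd8 were read at no less than 7691 and 7995 TPM in every library, and Krt8 of epithelial cells at no less than 4315 TPM. Of the 23 tested colonocyte genes, 1 was higher and 0 were lower in all of the 4 on CPM. Of the 9 tested genes of posterior gut identity, 1, Hoxb13, was lower in all of the 4 on CPM, as were 0.609% of all genes tested. Its TPM overlapped, at 74.5 to 130.8 in the 4 and 128 to 235 in the other 8. Of the 12 tested crypt base and proliferation genes, 1 was higher and 0 were lower in all of the 4. This 1, Olfm4, a gene of stem cells in crypts of the small intestine, was read at 9.53 to 126 TPM in the 4 and at no more than 4.45 TPM in the other 8. Lgr5, another stem cell gene, was read at 3.92, 3.87, 6.51 and 5.80 TPM in the 4, in the order given above. In the other 8 it lay between 4.46 and 5.61 TPM, so its lowest and highest levels both fell among the 4. Hoxb13, Lyz1, Mmp7, Olfm4 and Lgr5 were chosen after their values were seen.

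**Figure D2:**
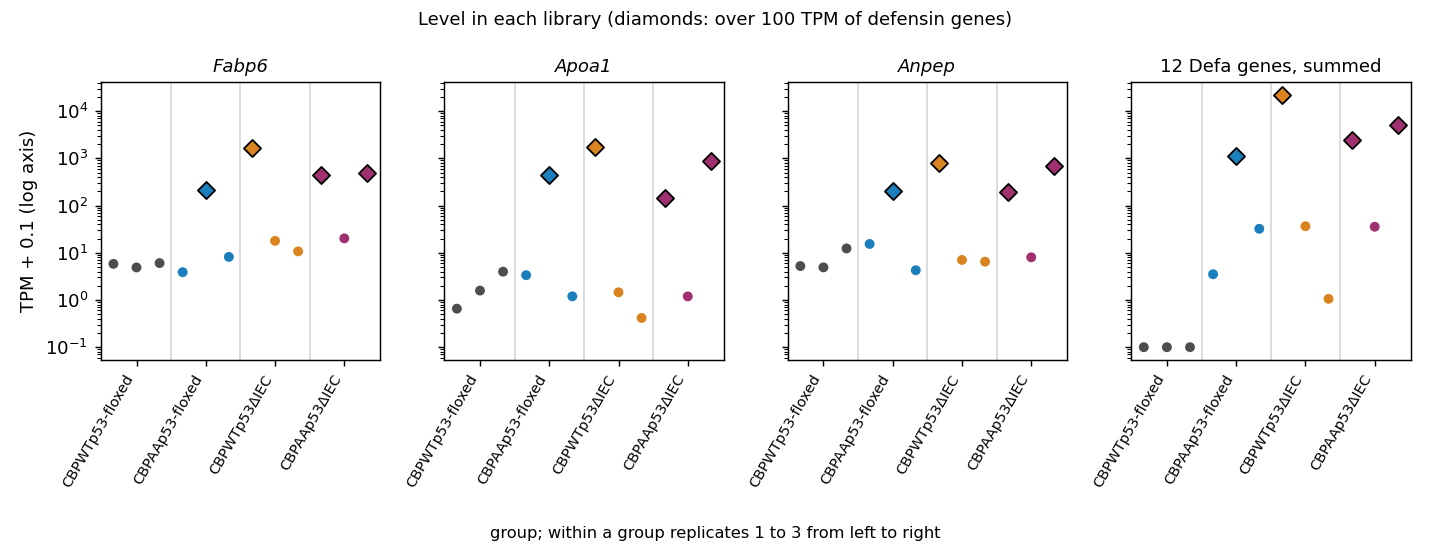
TPM + 0.1 on a log axis of Fabp6, Apoa1, Anpep and the sum of 12 Defa genes in each library, by group, with replicates 1 to 3 from left to right. Diamonds mark the 4 libraries with over 100 TPM of Defa genes, which lie above every other library in all 4 panels, and the 3 CBPWTp53-floxed libraries have no Defa reads.

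Counted over the list, 15 of the 31 tested genes were higher in each of these 4 libraries than in any of the other 8 on CPM, and 0 were lower in all of them, whereas 1.35% of all genes tested were higher and 0.609% lower. The 4 were told apart by their Defa levels after the values were seen, so these shares are a description. The 15 were Fabp6, Apoa1, Apoa4, Apoc3 and Mttp of lipid handling, the hydrolases Anpep, Enpep, Sis, Treh and Dpp4, the transporters and receptors Slc6a19, Slc34a2 and Cubn, the adenosine deaminase gene Ada, and the transcription factor gene Maf. On TPM, Dpp4 and Ada overlapped between the 4 and the other 8. Of 49 further small-intestinal absorptive genes tested, 16 were higher in all of the 4 and 0 lower. CBPWTp53ΔIEC replicate 1 held the highest level of 23 of the 31 genes, and it exceeded both other replicates of its group for 30 of 31, by a median ratio of 4.12 (TPM + 0.1 in both). Otc was the exception. The matching shares of all genes tested were not computed, so both counts only describe the list.
The pancreatic genes Cpa1, Cpb1, Cela3b, Ctrb1, Ctrc, Amy2a5 and Amy2b were listed at 0 in all 12 libraries. The 15 pancreatic genes summed to between 164 and 380 TPM, with 179 to 191 TPM in the 4. Most of each sum came from Clps, at 56.1 to 291 TPM, and Cela1, at 71.7 to 129 TPM. The 14 liver genes summed to 40.6 to 54.7 TPM, with 46.5 to 51.9 TPM in the 4, although 1 of the 5 tested, Serpina1b, was higher in all of the 4. The 12 leukocyte genes summed to 18.9 to 27.0 TPM in the 4 and to 8.81 to 16.6 TPM in the other 8, with 2 of 9 tested, Gzmb and Itgam, higher in all of the 4. The 10 stromal genes summed to 1.80 to 2.98 TPM and the 5 endothelial genes to 0.937 to 1.85 TPM over the 12 libraries. Serpina1b, Gzmb, Itgam and the pancreatic genes were named after their values were seen. Mki67, a gene of dividing cells, was read at 12.9, 30.6, 75.7 and 25.7 TPM in CBPAAp53-floxed replicate 2, CBPWTp53ΔIEC replicate 1 and CBPAAp53ΔIEC replicates 1 and 3. It was read at 81.9 to 107 TPM in the remaining libraries without p53 and at 20.1 to 31.2 TPM in the remaining libraries with p53. Whether tissue of the small intestine or the position of the sample along the gut accounts for the 4 libraries was not tested. In bulk crypts, more cells of a type and more RNA per cell cannot be told apart.

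Genes for the export of fat differed in how far they set the 4 libraries apart. Apoa4, an apolipoprotein of chylomicrons, was read at 0.377, 0.168 and 0.247 TPM in CBPWTp53-floxed, 0.332, 19.7 and 0 TPM in CBPAAp53-floxed, 83.9, 0 and 0.215 TPM in CBPWTp53ΔIEC and 0.409, 0 and 11.7 TPM in CBPAAp53ΔIEC libraries, so that CBPAAp53ΔIEC replicate 1 was barely above the other 8. Mttp, which loads lipid onto apolipoprotein B, was read at 1.40, 1.11 and 1.57 TPM in CBPWTp53-floxed, 2.11, 8.22 and 0.934 TPM in CBPAAp53-floxed, 34.5, 1.59 and 1.23 TPM in CBPWTp53ΔIEC and 6.91, 0.899 and 22.9 TPM in CBPAAp53ΔIEC libraries. All of the 4 lay above the other 8 for Mttp. Its partner Apob was read at 37.6, 34.1 and 33.7 TPM in CBPWTp53-floxed, 51.6, 36.7 and 24.1 TPM in CBPAAp53-floxed, 84.8, 16.4 and 23.7 TPM in CBPWTp53ΔIEC and 35.4, 20.1 and 76.8 TPM in CBPAAp53ΔIEC libraries. Apob was thus high outside the 4 as well, and CBPAAp53-floxed replicate 1 lay above 2 of the 4. Fabp2 was read at 1175, 1006 and 1358 TPM in CBPWTp53-floxed, 1547, 2274 and 1142 TPM in CBPAAp53-floxed, 2531, 997 and 977 TPM in CBPWTp53ΔIEC and 942, 613 and 1824 TPM in CBPAAp53ΔIEC libraries. Its lowest level was that of CBPAAp53ΔIEC replicate 2. Apoc3 did not exceed 8.16 TPM, and Rbp2, a retinol binding protein, lay between 10.7 and 46.4 TPM.

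The hydrolases fell into some that were steady and some that were not. Enpep, glutamyl aminopeptidase, was read at 2.91, 2.92 and 4.68 TPM in CBPWTp53-floxed, 6.58, 40.0 and 3.74 TPM in CBPAAp53-floxed, 165, 8.02 and 8.63 TPM in CBPWTp53ΔIEC and 36.1, 4.87 and 147 TPM in CBPAAp53ΔIEC libraries. All of the 4 lay above the other 8 here too. Sis, sucrase-isomaltase, was read at 15.0, 53.4, 7.56 and 45.9 TPM in CBPAAp53-floxed replicate 2, CBPWTp53ΔIEC replicate 1 and CBPAAp53ΔIEC replicates 1 and 3 and between 1.35 and 4.05 TPM in the other 8. Mgam, maltase-glucoamylase, behaved otherwise: it was read at 53.2, 55.1 and 55.5 TPM in CBPWTp53-floxed, 62.7, 40.6 and 50.6 TPM in CBPAAp53-floxed, 84.2, 70.7 and 71.7 TPM in CBPWTp53ΔIEC and 70.2, 65.1 and 83.5 TPM in CBPAAp53ΔIEC libraries. Each library without p53 exceeded each library with p53, whether or not it was among the 4. Alpi, intestinal alkaline phosphatase, was read at 47.5, 52.5 and 53.5 TPM in CBPWTp53-floxed, 29.2, 58.6 and 22.5 TPM in CBPAAp53-floxed, 115, 29.9 and 33.7 TPM in CBPWTp53ΔIEC and 46.6, 29.2 and 88.7 TPM in CBPAAp53ΔIEC libraries. The 5 libraries of the last 3 groups that are not among the 4 lay below every CBPWTp53-floxed library. Mep1a was read at 386, 342 and 352 TPM, 317, 408 and 288 TPM, 447, 283 and 326 TPM and 343, 237 and 439 TPM in the 4 groups in the same order, and Mep1b, the other meprin subunit, at 93.4, 98.0 and 87.7 TPM, 110, 124 and 76.6 TPM, 247, 69.9 and 76.2 TPM and 106, 64.0 and 194 TPM. Both meprin genes were highest in CBPWTp53ΔIEC replicate 1. Dpp4 lay between 17.0 and 55.5 TPM and Treh, trehalase, between 0.298 and 18.4 TPM.

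Of the transporters, Slc10a2, the ileal sodium-bile acid cotransporter, was read at 73.6, 81.3 and 72.8 TPM in CBPWTp53-floxed, 56.4, 70.2 and 53.3 TPM in CBPAAp53-floxed, 126, 84.7 and 115 TPM in CBPWTp53ΔIEC and 99.0, 78.0 and 110 TPM in CBPAAp53ΔIEC libraries. Within each CBP genotype the groups with and without p53 did not overlap on TPM, although on CPM those with mutant CBP did. Slc5a1 was read at 106, 118 and 105 TPM, 112, 108 and 89.3 TPM, 161, 82.6 and 107 TPM and 103, 102 and 159 TPM in the 4 groups in the same order, which overlapped throughout. Slc6a19, which takes up neutral amino acids, ranged from 0.858 to 57.3 TPM, the phosphate transporter Slc34a2 from 6.36 to 65.6 TPM, and cubilin (Cubn), the receptor for vitamin B12 bound to intrinsic factor, from 1.16 to 16.0 TPM. The peptide transporter Slc15a1 went from 7.51 to 28.0 TPM with its highest level in CBPAAp53-floxed replicate 1, and the fructose transporter Slc2a5 from 2.55 to 9.72 TPM. Maf ranged from 2.09 to 22.6 TPM and Creb3l3, a membrane-bound transcription factor of lipid metabolism, from 2.30 to 22.1 TPM. Of the secreted lectins, Reg3a was read at 2.49, 1.85 and 3.45 TPM in CBPWTp53-floxed, 1.22, 4.52 and 2.11 TPM in CBPAAp53-floxed, 31.0, 9.11 and 4.26 TPM in CBPWTp53ΔIEC and 9.90, 4.67 and 8.75 TPM in CBPAAp53ΔIEC libraries, and Reg1 did not exceed 2.03 TPM. Each library without p53 held more Reg3a than each CBPWTp53-floxed library.

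For both urea cycle enzymes of the list, every library without p53 lay above every library with it. Cps1, carbamoyl phosphate synthetase 1, catalyses the entry step of the cycle in mitochondria. It was read at 5.13, 3.46 and 3.83 TPM in CBPWTp53-floxed, 6.95, 6.67 and 5.36 TPM in CBPAAp53-floxed, 32.0, 18.9 and 20.4 TPM in CBPWTp53ΔIEC and 36.4, 11.1 and 19.5 TPM in CBPAAp53ΔIEC libraries. Among the libraries without p53, those with high Defa levels were the highest of their groups, whereas CBPAAp53-floxed replicate 2, which also had high Defa levels, was not above CBPAAp53-floxed replicate 1. Otc, ornithine transcarbamylase, joins carbamoyl phosphate to ornithine in the following step. It was read at 9.90, 10.7 and 9.57 TPM in CBPWTp53-floxed, 8.58, 7.69 and 8.20 TPM in CBPAAp53-floxed, 13.6, 14.1 and 13.0 TPM in CBPWTp53ΔIEC and 16.8, 13.7 and 13.7 TPM in CBPAAp53ΔIEC libraries. Here too the 6 without p53 lay above the 6 with it, by less than for Cps1. How many of all genes split in this way was not counted. Ass1, a urea cycle gene among the further absorptive genes, did not split so. It lay between 2.11 and 7.12 TPM without p53 and between 3.20 and 4.54 TPM with it. Cps1 (chromosome 1, 67123026 to 67231259, plus strand of GRCm38) and Otc (chromosome X, 10252305 to 10321024, plus strand) are overlapped by no other annotated gene.

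**Figure D3:**
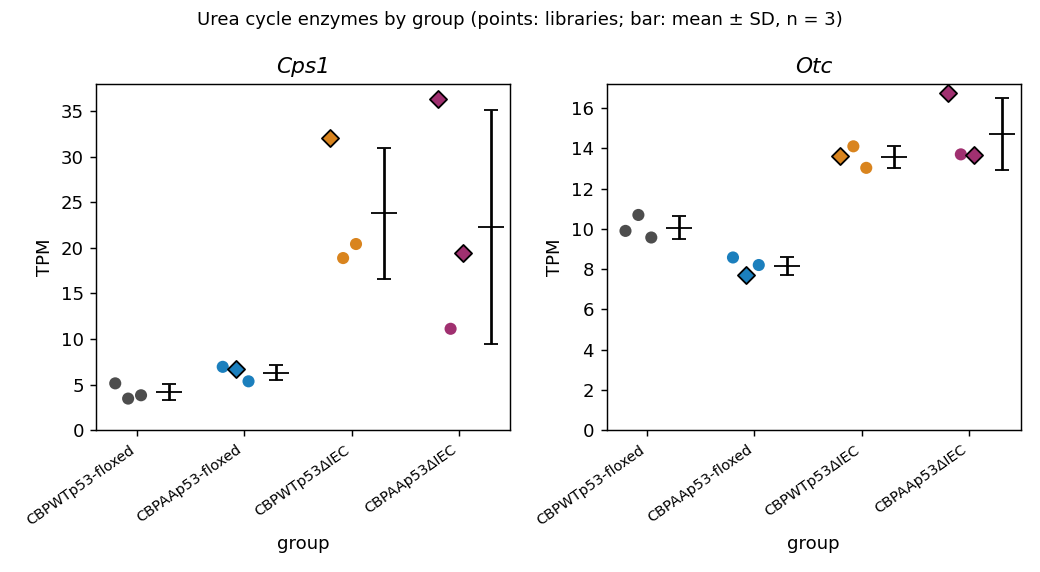
TPM of Cps1 and Otc in each library by group, with the mean ± SD (n = 3) beside the points, diamonds marking the 4 libraries with over 100 TPM of Defa genes, and axes from 0. For both genes the 6 libraries without p53 lie above the 6 with it, the diamond of CBPAAp53-floxed among the low ones.

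The comparison CBPWTp53ΔIEC vs. CBPWTp53-floxed asks what p53 deletion changed with wild-type CBP. Cps1 rose from 4.14 ± 0.878 to 23.8 ± 7.19 TPM (SD, n = 3), a log2 fold change of 2.62 with a standard error of 0.44 (adjusted p = 0.0256, edgeR's quasi-likelihood test over all 14610 genes). It was 1 of 31 tested genes called (adjusted p below 0.05, log2 fold change beyond ±0.5), and 3.15% of all genes tested were called. An unadjusted p under 0.05 was reached by 7 of the 31 and by 20.9% of all genes in edgeR. Otc went from 10.1 ± 0.577 to 13.6 ± 0.536 TPM (SD, n = 3), a log2 fold change of 0.48 ± 0.14 (SE). Its adjusted p was 0.0791 in edgeR and 0.043 in DESeq2, where its fold change, also 0.48, fell short of the cutoff. Fabp6 had a log2 fold change of 6.93, Enpep of 4.36, Apoa1 of 8.36 and Anpep of 5.47, with standard errors of 2.78, 1.84, 3.98 and 2.62 and adjusted p of 0.204, 0.226, 0.276 and 0.278 in edgeR. For all 4 of these genes replicate 1 of CBPWTp53ΔIEC was far above the other replicates, and none passed the edgeR test. Reg3a had 2.66 ± 0.77 (SE, adjusted p = 0.0819 in edgeR), Slc10a2 0.58 ± 0.21 (SE, adjusted p = 0.135 in edgeR) and Mgam 0.54 ± 0.18 (SE, adjusted p = 0.116 in edgeR). DESeq2 called 6 genes of the 30 with an adjusted p, namely Fabp6, Cps1, Enpep, Apoa1, Anpep and Reg3a, all higher, where it called 6.17% of all genes. On CPM the groups did not overlap for 8 of the 31 genes (Fabp6, Slc10a2, Cps1, Enpep, Otc, Maf, Mgam and Reg3a), all higher without p53, and for 30.8% of all genes. The median log2 fold change of the 31 was 1.34 against 0.01 over all genes.

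Cps1 was also called without the library with the highest Defa level. Without CBPWTp53ΔIEC replicate 1 its log2 fold change was 2.16 (adjusted p = 0.0188 in edgeR), where 6.06% of all genes were called, but without any CBPWTp53-floxed library or without CBPWTp53ΔIEC replicate 2 or 3 its adjusted p in edgeR lay between 0.0689 and 0.154, at log2 fold changes between 2.51 and 2.81. In those fits between 0.00671% and 0.047% of all genes were called, so the Cps1 call was lost along with nearly all other calls. Without CBPWTp53ΔIEC replicate 1 the median of the 31 genes went to -0.24, and Apoa1 and Anpep had log2 fold changes of -1.35 and -0.24.

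In a fit without the 4 libraries with high Defa levels, which was added after the values were seen, 7 of 29 tested genes were called in CBPWTp53ΔIEC vs. CBPWTp53-floxed and 11.4% of all 15208 genes. Of CBPWTp53ΔIEC, 2 libraries were left, of which replicate 2 held 36.4 and replicate 3 0.957 TPM of Defa genes. Levels of Fabp6 and Enpep had set the 4 apart as well, and the adjusted p given here do not account for the choice of libraries. Fabp6 was higher by a log2 fold change of 1.31, Cps1 by 2.17, Enpep by 1.15 and Reg3a by 1.30 (adjusted p = 0.0227, 3.59e-08, 0.000736 and 0.0429, edgeR). Alpi, Creb3l3 and Slc2a5 were lower, with log2 fold changes of -0.78, -1.27 and -0.75 (adjusted p = 2.23e-05, 0.00853 and 0.0363, edgeR), where all 12 libraries gave 0.38, 0.26 and 0.20. The direction of these 3 genes therefore turned with the libraries used. The median of the list was -0.25, against 1.34 with all 12.

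**Figure D4:**
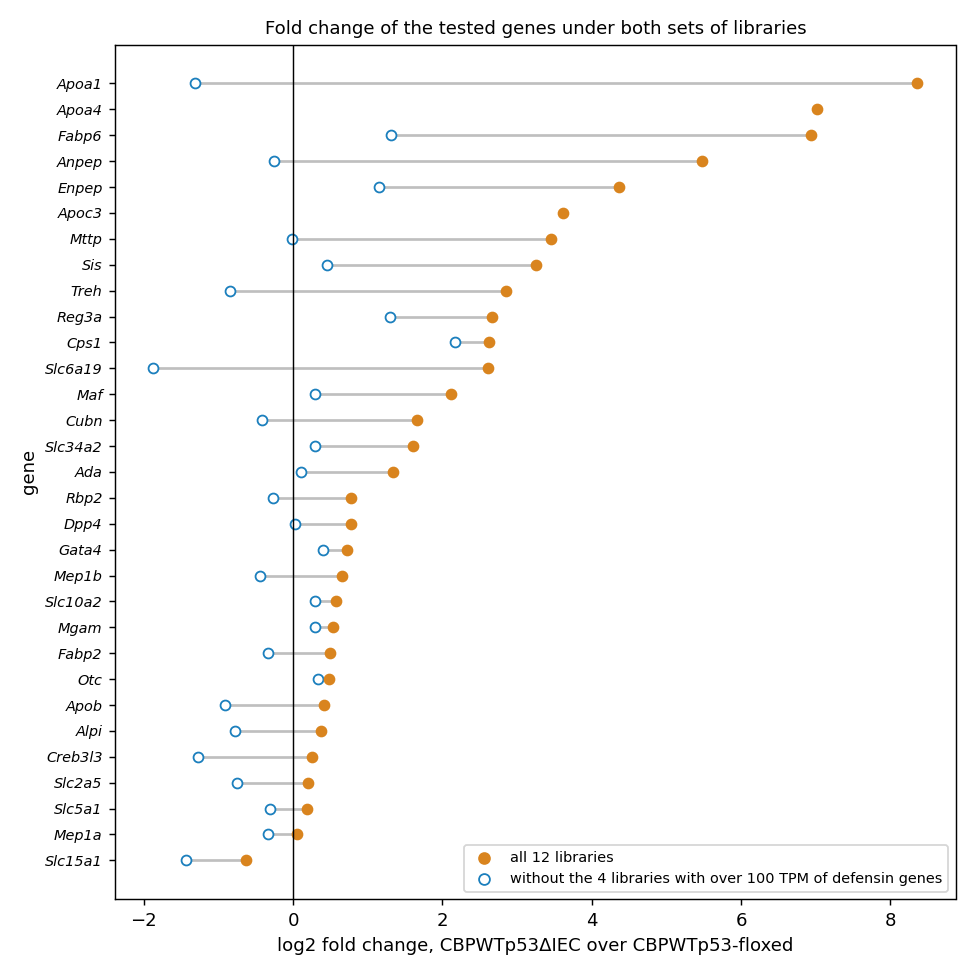
Log2 fold change of the tested genes in CBPWTp53ΔIEC over CBPWTp53-floxed, from all 12 libraries (filled) and without the 4 libraries with over 100 TPM of Defa genes (open; Apoa4 and Apoc3 did not pass the filter there). Apoa1 goes from 8.36 to -1.32 and Anpep from 5.47 to -0.25, whereas Cps1 goes from 2.62 to 2.17.

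In CBPAAp53ΔIEC vs. CBPAAp53-floxed, p53 deletion with mutant CBP, 0 of the 31 genes and 0.0274% of all genes were called by edgeR, 3 of the 31 (Slc10a2, Cps1 and Otc) had an unadjusted p under 0.05 (12.6% of all genes), and DESeq2 called 2 (Cps1 and Otc) where it called 0.542% of all genes. Cps1 went from 6.32 ± 0.847 to 22.3 ± 12.9 TPM (SD, n = 3), a log2 fold change of 1.69 ± 0.42 (SE, adjusted p = 0.320 in edgeR and 0.0496 in DESeq2). Otc went from 8.16 ± 0.444 to 14.7 ± 1.78 TPM (SD, n = 3), a log2 fold change of 0.71 ± 0.14 (SE, adjusted p = 0.271 in edgeR and 0.0154 in DESeq2). Without CBPAAp53ΔIEC replicate 3, Otc was called at an adjusted p of 0.0374 in edgeR, where 2.19% of all genes were called. On CPM the groups did not overlap for 3 genes (Cps1, Otc and Mgam), all higher without p53, and for 15% of all genes. The median was 0.59 against 0.01 over all genes, and -0.16 without CBPAAp53ΔIEC replicate 3. Without the 4 libraries, which leaves 1 CBPAAp53ΔIEC library whose spread is assumed to be that of the other groups, 5 of 29 genes and 6.92% of all genes were called. Of these, Cps1 (0.72) and Sis (1.05) were higher and Fabp2 (-1.26), Mep1b (-0.67) and Creb3l3 (-2.25) lower on the log2 scale.

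For mutant against wild-type CBP, edgeR called 0 of the 31 genes and DESeq2 0 of the 35 with an adjusted p, in each of 2 comparisons. In CBPAAp53-floxed vs. CBPWTp53-floxed edgeR called 0% and DESeq2 0.122% of all genes. In CBPAAp53ΔIEC vs. CBPWTp53ΔIEC edgeR called 0.00684% and DESeq2 0.00369% of all genes. The number with an unadjusted p under 0.05 in edgeR was 0 in both, against 8.04% and 3.57% of all genes. On CPM, Fabp2, Cps1 and Maf did not overlap between the p53-floxed groups (on TPM Fabp2 did), all higher in CBPAAp53-floxed, against 19.4% of all genes, with log2 fold changes of 0.61 ± 0.54, 0.74 ± 0.44 and 1.26 ± 1.06 (SE; adjusted p = 0.754, 0.656 and 0.736 in edgeR). All genes of the list overlapped on CPM between the p53-deleted groups, whereas 9.26% of all genes did not. Cps1 differed there by -0.19 ± 0.40 and Otc by 0.05 ± 0.14 on the log2 scale (SE). The median log2 fold change was 0.46 in the floxed groups (-0.02 without CBPAAp53-floxed replicate 2) and -0.25 in the deleted groups (0.89 without CBPWTp53ΔIEC replicate 1). The interaction term asks whether p53 deletion acted differently in the 2 CBP genotypes. It was called for 0 of 31 genes in edgeR, against 0.00684% of all genes. In DESeq2 it was called for 0 of the 30 genes with an adjusted p, against 0.207% of all genes. In edgeR 0 of the 31 had an unadjusted p under 0.05 for it, against 10.3% of all genes. For Cps1 it was -0.93 ± 0.60 (SE, adjusted p = 0.571 in edgeR), and without the 4 libraries it was -1.46 (adjusted p = 0.0211 in edgeR), with 1 CBPAAp53ΔIEC library. Without the 4, the interaction was called for 2 of 29 genes (Cps1 and Alpi) and 0.23% of all genes, and CBPAAp53ΔIEC vs. CBPWTp53ΔIEC for 0 of 29 and 0.0526% of all genes. In CBPAAp53-floxed vs. CBPWTp53-floxed without the 4, 1 gene, Alpi, was called (-0.88 on the log2 scale, adjusted p = 0.000606 in edgeR), where 0.276% of all genes were. The comparisons share libraries, so their values are not independent of each other.

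Of the 49 further small-intestinal absorptive genes tested, 3 rose and 0 fell in CBPWTp53ΔIEC vs. CBPWTp53-floxed (edgeR), where 3.15% of all genes were called. The 3 were the calcium pump gene Atp2b1, the magnesium channel gene Trpm6 and the manganese exporter gene Slc30a10. The median log2 fold change over the 49 was 0.56. The most abundant of the 49, the calcium binding protein gene S100g and the vitamin D receptor gene Vdr, lay between 219 and 1434 TPM and between 207 and 350.1 TPM.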

How the data were processed

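The table the authors deposited gives, for each gene and library, the raw count and the TPM. Its further columns, with the authors' own comparisons, were not used. Per the labels, libraries were made with a stranded mRNA kit, and the submitters' processing notes name fastp 0.20.0, FastQC 0.11.9, HISAT2 2.1.0, SAMtools 1.9, featureCounts of Subread 2.0.1 and GRCm38. Whether counting used the strand is not given in the sources used here. Another gene of the GENCODE annotation overlaps 16 of the 36 genes, 13 of them on the opposite strand. How far this affects their values was not measured.

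Counts were tested with edgeR 4.0.16 in R 4.3.3, after its filter on low counts (minimum 10) and TMM scaling, in a robust quasi-likelihood model of 4 groups fitted to all 12 libraries. Genes were called at a Benjamini-Hochberg adjusted p under 0.05 over all genes and a log2 fold change beyond ±0.5, a cutoff the study states without its test. Standard errors come from the F statistic. DESeq2 1.42.0, other filters and scalings, a replicate block and the omission of each library were alternatives. The script was tested on simulated data. The members and lists were chosen with earlier results of these data known. Values in every library are given for the 12 genes with the highest mean TPM, those called by edgeR or DESeq2 and the 6 with the largest ratio of highest library to median, 17 in all. Some further genes were named after their values were seen. Promoters are those of RefSeq. Figures were drawn with matplotlib 3.10.9.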

Additional observations from a re-analysis of the deposited data

How the results depend on the processing

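The number of listed genes called changed as follows. In CBPWTp53ΔIEC vs. CBPWTp53-floxed it was 1 with edgeR, 6 with DESeq2, between 0 and 1 with each library left out, 7 without the 4 libraries with over 100 TPM of Defa genes and 8 without these and with the replicate block. Over all genes, 460 were called with all libraries there, and between 1 (without CBPWTp53-floxed replicate 3) and 906 (without CBPWTp53ΔIEC replicate 1) with 1 left out. In CBPAAp53ΔIEC vs. CBPAAp53-floxed it was 0 with edgeR, 2 with DESeq2, between 0 and 1 with each library left out, and 5 without the 4 libraries, with or without the block. Over all genes it went from 4 to between 1 and 326, the latter without CBPAAp53ΔIEC replicate 3. In CBPAAp53-floxed vs. CBPWTp53-floxed it was 1 without the 4 libraries, with or without the block. For the interaction, calls made without the 4 libraries were lost with the block as well, and both fits left 1 CBPAAp53ΔIEC library. The fit with the block and without the 4 libraries used 8 libraries and had 2 residual degrees of freedom. Both fits without the 4 were added after the values were seen. The median log2 fold change in CBPWTp53ΔIEC vs. CBPWTp53-floxed lay between -0.24 and 1.75 with each library left out and was -0.25 without the 4 libraries. It lay between -0.02 and 0.70 in CBPAAp53-floxed vs. CBPWTp53-floxed, between -0.16 and 0.98 in CBPAAp53ΔIEC vs. CBPAAp53-floxed and between -1.04 and 0.89 in CBPAAp53ΔIEC vs. CBPWTp53ΔIEC. The cause of these changes was not tested.

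Single genes changed direction as follows, as log2 fold changes. In CBPWTp53ΔIEC vs. CBPWTp53-floxed without CBPWTp53ΔIEC replicate 1, Apoa1 had -1.35, Anpep -0.24, Creb3l3 -1.27, Slc2a5 -0.74 and Alpi -0.78. With each library left out in turn they went up to 9.27, 6.05, 0.70, 0.53 and 0.74. Without the 4 libraries they had -1.32, -0.25, -1.27, -0.75 and -0.78, and with the block as well -1.38, -0.09, -1.08, -0.83 and -0.79. In CBPAAp53ΔIEC vs. CBPAAp53-floxed, Mep1b had -0.01 without CBPAAp53-floxed replicate 3, -0.44 without CBPAAp53ΔIEC replicate 3, at most 0.42 with any library left out, -0.67 without the 4 libraries and -0.71 with the block as well. Sis had -0.33 without CBPAAp53ΔIEC replicate 3 and at most 3.56 with any library left out, and Mgam 0.00 without the 4 libraries and with the block. In CBPAAp53ΔIEC vs. CBPWTp53ΔIEC, Cps1 had 0.26 without CBPWTp53ΔIEC replicate 1 and 0.13 without CBPAAp53ΔIEC replicate 2 (lowest -0.72), and Otc had -0.07 without CBPWTp53ΔIEC replicate 3 (highest 0.19), -0.04 without CBPAAp53ΔIEC replicate 1 and -0.02 without the 4 libraries and with the block.

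The replicate block with all 12 libraries changed no count of listed genes called by more than 1.5 times. The labels do not say whether replicate numbers pair libraries across groups. Deviations of same-numbered libraries correlated between -0.574 and 0.601, which cannot show whether they were paired. Genes that the filter on low counts removed, namely Fabp1, Apoc2, Lct, Slc2a2 and Reg1, were not tested in the main edgeR fit. DESeq2 called none of them in the comparisons in which it gave them an adjusted p. With so few reads, differences in them could not be judged at this depth.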
